A study of Mus musculus with 9 samples.

Results

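Glycosyltransferases build the sugar chains of cell surface proteins and lipids, and 40 of their genes were examined here for peaks of the E proteins E2A and HEB in mouse thymocyte precursors. The 40 genes were listed by enzyme family, among 21883 protein-coding genes of the reference. A peak was assigned to a gene when it touched the span or the 50 kb flanking it at each end, in mouse build mm10. The list was proposed with the peaks of these same data known, in particular the highest HEB peak of DN3 cells near B4galt1. The presence of peaks near the genes is therefore a description with no test.

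The study sequenced DNA bound by E2A or HEB, and input DNA, from 3 groups of cells, 9 libraries with 1 of each kind per group. All cells derived from Rag2-/- fetal liver progenitors of BALB/c background, which cannot rearrange their own T cell receptor genes. DN3 cells came from day 7 of culture and are defined in the labels as Thy1.2+ CD4- CD8- CD25+ CD44-. For the other groups, such DN3 cells were held overnight, with IL7, Flt3L and polybrene, on GP+E cells producing the MIY-KN6 vector of a gamma-delta T cell receptor. YFP+ cells were sorted and grew on OP9-DL1 stroma, which displays a Notch ligand, until day 3. After 10 min in 1% formaldehyde they were sorted as Thy1+ CD24+ CD73- cells, which per the labels retain alpha-beta potential, and Thy1+ CD24+ CD73+ cells, which have lost it. Both antibodies were rabbit polyclonal sera against the last 12 amino acids of their target. No cells infected without the receptor are among the samples. The effects of infection, culture time and receptor cannot be told apart. Duplicates were concatenated by the submitters and each factor and stage has a single peak list. The values below therefore carry no error between replicates.

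E proteins belong to the helix-loop-helix class of transcription factors and recognise E-box sequences as dimers. E2A is encoded by Tcf3 and HEB by Tcf12. Golgi enzymes act in series on a growing glycan. Mgat enzymes set the number of N-glycan branches, B4galt and B3gnt enzymes add galactose and N-acetylglucosamine, many of them building the N-acetyllactosamine repeats of glycan chains and some acting on glycolipids or on the linker of glycosaminoglycans, Galnt enzymes and C1galt1 start mucin-type O-glycans, and sialyl- and fucosyltransferases cap the chains. In thymocytes these glycans bear on galectin binding, on lectin binding that changes with maturation, and on selectin ligands used in homing.

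The 6 lists held 9407 to 23205 peaks on the main chromosomes. The deposited score rises as the peak caller's p-value falls, its minimum is 50, and a score of at least 100 is called strong here. Strong peaks made up 40.6% of the DN3 E2A list and 7.02% of the CD73+ E2A list. Median widths were 617 bp and 721 bp in DN3 cells and 149 bp to 181 bp in the others. Read depth is unknown, and a gene without a called peak is not shown to lack the factor. Of strong HEB peaks over the genome, 85.1% overlapped an E2A peak in DN3 cells and 74.0% in CD73- cells, against 31.8% in CD73+ cells. The CD73+ lists of E2A and HEB thus overlapped less, and this share does not show which of them differs. Counts of genes by stage are also given with the CD73+ lists exchanged. Of 9 T precursor genes, all had a peak in both DN3 lists and in the CD73+ HEB list, and 4 had one in the CD73+ E2A list. In CD73- cells 6 had an E2A peak and 8 a HEB peak. Peaks also lay at 3 to 5 of 5 B cell genes and 2 to 4 of 5 myeloid genes in each list. They lay at 0 to 2 of 4 erythroid genes and at 1 to 3 of 4 stromal genes, where 37.9% to 53.1% of all protein-coding genes had one. A peak list does not measure expression, so the cell labels could not be checked further.

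Promoter sequence was at hand from RefSeq (GRCm38.p6) for 32 of the 40 genes, in 46 promoters that run from 250 bases before to 50 bases after a start site. The 4 stretches printed here are the 250 bases before a start site. They are shown since they differ in what touched them, and B4galt1 since it carries the leading peak of the family far outside its promoter. Capitals mark the E-box CAGGTG, searched on both strands (also read as CACCTG) together with CAGCTG. The B4galt1 stretch is chr4:40853985-40854234 on the minus strand, that of Mgat1 chr11:49250302-49250551 on the plus strand, that of C1galt1 chr6:7844974-7845223 on the plus strand, and that of Fut4 chr9:14752123-14752372 on the minus strand.
B4galt1: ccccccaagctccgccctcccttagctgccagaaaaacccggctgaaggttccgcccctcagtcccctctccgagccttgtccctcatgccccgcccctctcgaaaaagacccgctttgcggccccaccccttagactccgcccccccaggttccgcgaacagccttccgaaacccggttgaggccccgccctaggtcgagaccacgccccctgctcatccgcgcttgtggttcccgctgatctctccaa
Mgat1: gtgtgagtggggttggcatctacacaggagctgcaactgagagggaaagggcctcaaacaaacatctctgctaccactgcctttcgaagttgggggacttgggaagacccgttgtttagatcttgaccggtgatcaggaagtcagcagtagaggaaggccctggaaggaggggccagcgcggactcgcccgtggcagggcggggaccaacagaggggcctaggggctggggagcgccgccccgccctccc
C1galt1: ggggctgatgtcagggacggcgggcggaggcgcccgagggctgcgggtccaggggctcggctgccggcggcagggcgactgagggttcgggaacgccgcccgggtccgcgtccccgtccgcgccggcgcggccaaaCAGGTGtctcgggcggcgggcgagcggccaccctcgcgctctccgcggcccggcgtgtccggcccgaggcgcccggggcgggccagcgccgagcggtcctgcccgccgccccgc
Fut4: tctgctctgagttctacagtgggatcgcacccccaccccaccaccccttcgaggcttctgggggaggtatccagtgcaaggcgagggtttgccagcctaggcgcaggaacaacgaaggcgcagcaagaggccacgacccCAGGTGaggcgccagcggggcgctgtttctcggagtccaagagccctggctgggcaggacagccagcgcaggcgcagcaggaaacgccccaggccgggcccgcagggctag

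Across the family, the count of genes with any peak stood moderately above that of all genes, and the count with high peaks more so. Against genes of like span, the count with any peak was only slightly higher in both CD73- lists and for E2A in CD73+ cells. In DN3 cells 30 of the 40 genes had an E2A peak, against 49.6% of all protein-coding genes, and 28 had a HEB peak, against 48.1%. In CD73- cells 21 had an E2A peak (41.3% of all genes) and 19 a HEB peak (37.9%). In CD73+ cells 26 had an E2A peak (53.1%) and 24 a HEB peak (41.8%). These genes are long, with a median span of 52526 bp against 17170 bp over all genes, and a long gene meets more peaks. Among all genes in the same deciles of span, 22.3 of 40 would carry a DN3 E2A peak, 21.4 a DN3 HEB peak, 18.2 and 17.1 a CD73- E2A and HEB peak, and 23.1 and 18.6 a CD73+ E2A and HEB peak.

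Strong peaks lay at 19 of the 40 genes for E2A and 18 for HEB in DN3 cells, where 27.5% and 22.2% of all genes had one. The counts were 7 for E2A and 10 for HEB in CD73- cells, where 7.08% and 9.08% of all genes had one, and 8 and 11 in CD73+ cells, where 9.1% and 15.8% did. At the shares of genes of like span, 12.6 and 10.3 genes would have had a strong peak in DN3 cells, 3.21 and 4.22 in CD73- cells, and 4.37 and 7.20 in CD73+ cells. Since the lists differ in how many strong peaks they hold, the 1000 highest peaks of each list were also counted, a version added after the data were seen. By that count 10 genes were met in DN3 cells by E2A (8.41% of all genes) and 11 by HEB (7.83%), 7 and 9 in CD73- cells (6.57% and 7.24%), and 5 and 8 in CD73+ cells (6.03% and 8.28%). B4galt1 and St8sia1, which encodes the enzyme that makes ganglioside GD3, were met in each of the 6 lists.

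**Figure D1:**
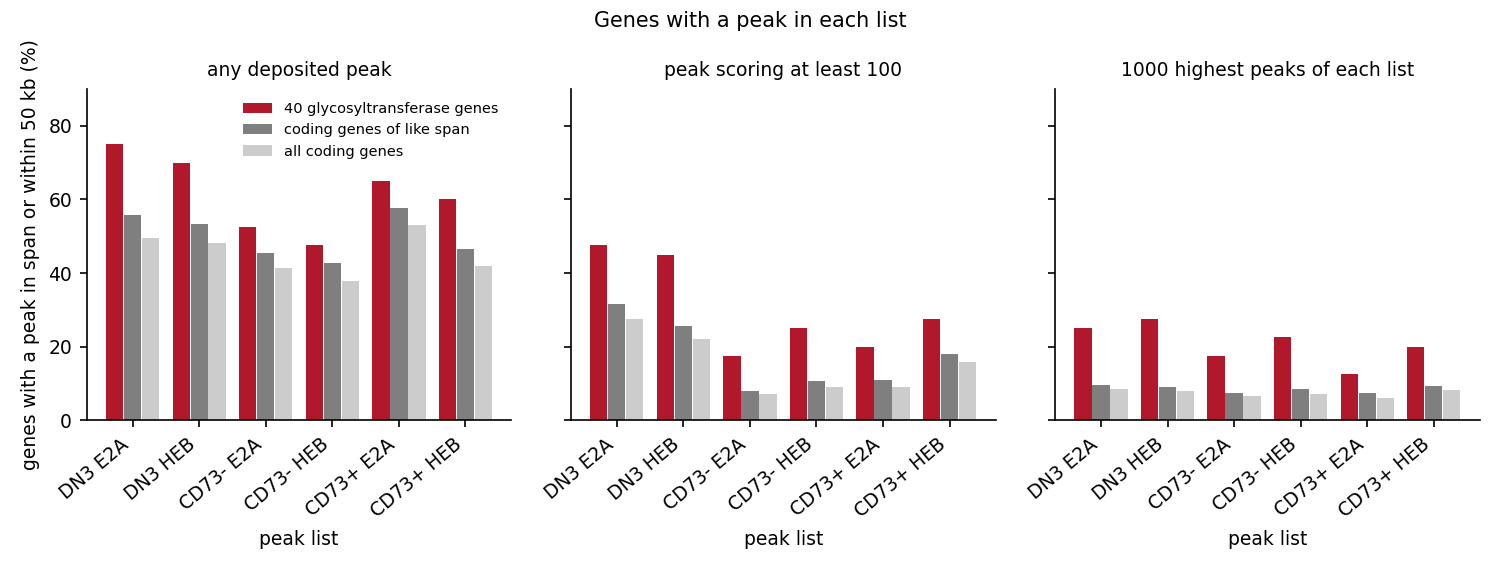
Percent of genes with a peak in span or within 50 kb in each of the 6 lists, for any peak, for peaks scoring at least 100 and for the 1000 highest peaks of a list; bars are the 40 glycosyltransferase genes, protein-coding genes of like span, and all protein-coding genes. The bar of the 40 genes is the tallest of its group in every list, from 75.0% with any DN3 E2A peak to 12.5% with 1 of the 1000 highest CD73+ E2A peaks.

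Over the 6 lists together, 25 of the 40 genes had a strong peak in at least 1 list, against 38.1% of all genes. A peak stood in all 6 lists at 7 genes, against 9.52% of all genes. These 7 were B4galt1, Mgat3, Mgat4a, St3gal1, St8sia1, Fut7 and Galnt7. No list had a peak at B4galt2 and B4galt3, against 11.7% of all genes. At the shares of genes of like span, 17.3 of the 40 would have had a strong peak in at least 1 list. By the same shares 4.85 would have had a peak in all 6 lists and 3.54 no peak. A single list had one at B4galt6, B4galt7, Mgat4b, Gcnt2 and Galnt3 (12.5%, against 17.98% of all genes), at scores of 50.08 to 66.6. Gcnt1 and Galnt10 had a peak in 2 lists (5%, against 19.55% of all genes). At the score of 100, C1galt1 (125.95), Galnt12 (122.26) and St8sia6 (103.55) stood just inside by their highest peak, and B4galt4 (97.25), St6gal2 (89.42) and Fut4 (89.25) just outside. At the edge of the window, the outermost peak counted lay 49907 bp from St3gal3 and scored 57.7, and the nearest one not counted lay 50248 bp from C1galt1 and scored 62.25. The windows of B4galt2 and St3gal3, 48633 bp apart, overlap.

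**Figure D2:**
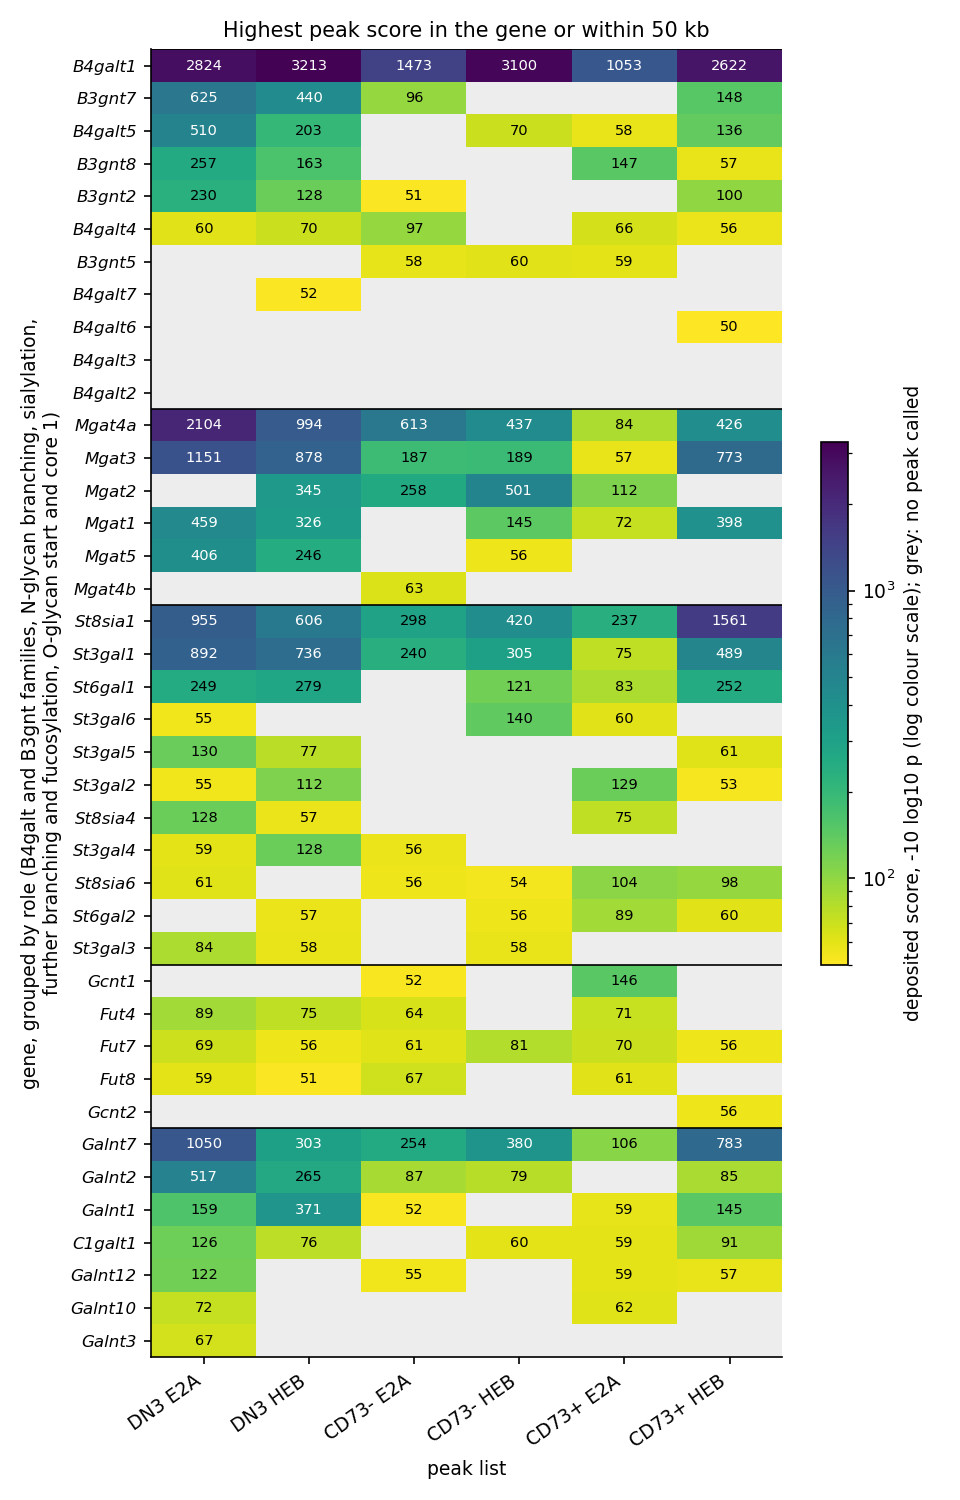
Highest deposited score (log colour scale, value printed) in or within 50 kb of each of the 40 genes, grouped by role, in each of the 6 lists; grey marks no called peak. The B4galt1 row holds the highest score of the family in every list, from 1053 to 3213, and the rows of B4galt2 and B4galt3 are empty.

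Peaks of the 6 lists were merged where they touched, which gave 205 regions at these genes, 92 of them inside the gene's span. Of the 205, 143 (69.8%) had a peak in 1 list alone, against 82.3% of all 58451 regions over the genome. Regions with a peak in all 6 lists numbered 5, 2.44% against 1.04% over the genome. Among the 56 strong regions of the family these shares were 25.0% in 1 list and 8.93% in all 6, close to the 28.3% and 7.75% of strong regions in general. For 46 of the 56 strong regions the glycosyltransferase gene was the nearest protein-coding gene. The other 10 lay nearer to another gene, and their link to the glycosyltransferase rests on the window alone. Of 39 strong regions at genes with a start site in the reference, 4 lay within 1 kb of it and 27 over 10 kb away.

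The highest region of the family lay upstream of B4galt1, which encodes the main galactosyltransferase that adds galactose to N-acetylglucosamine. B4galt1 spans chromosome 4 from 40804602 to 40853984 on the minus strand. The region, at 40874617 to 40877554, began 20633 bp before the start site, within the long noncoding RNA gene Gm34289. It scored 2824 for E2A and 3213 for HEB in DN3 cells, 1473 and 3100 in CD73- cells, and 1053 and 2622 in CD73+ cells. Its rank was 38 in the DN3 E2A list and 1 in the DN3 HEB list, the value that drew attention to the family. It ranked 14 for E2A in CD73- cells, where its HEB score was one of 7 tied at the top, and 21 for E2A and 13 for HEB in CD73+ cells. All 6 lists thus placed it within their highest 0.308% of peaks. Ranks describe a list and show no change between lists.

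Around this region, B4galt1 had further and much lower peaks. One in the gene, 29518 bp from the start site, scored 304 for E2A and 66.1 for HEB in DN3 cells and 52.3 for HEB in CD73- cells. A merged region that began 13924 bp inside the gene held several separate peaks. Its highest scores, not all at one position, were 150 for E2A and 137 for HEB in DN3 cells and 88.2 for HEB in CD73+ cells. At the B4galt1 promoter printed above, peaks scored 57.9 for HEB in DN3 cells and 50.01 for HEB in CD73+ cells, close to the minimum, and neither E-box was found there. With a window of 10 kb in place of 50 kb, which leaves out the upstream region, the highest B4galt1 scores fell to 304 and 137 in DN3 cells for E2A and HEB and 52.3 and 88.2 for HEB in CD73- and CD73+ cells, with no E2A peak in either.

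**Figure D3:**
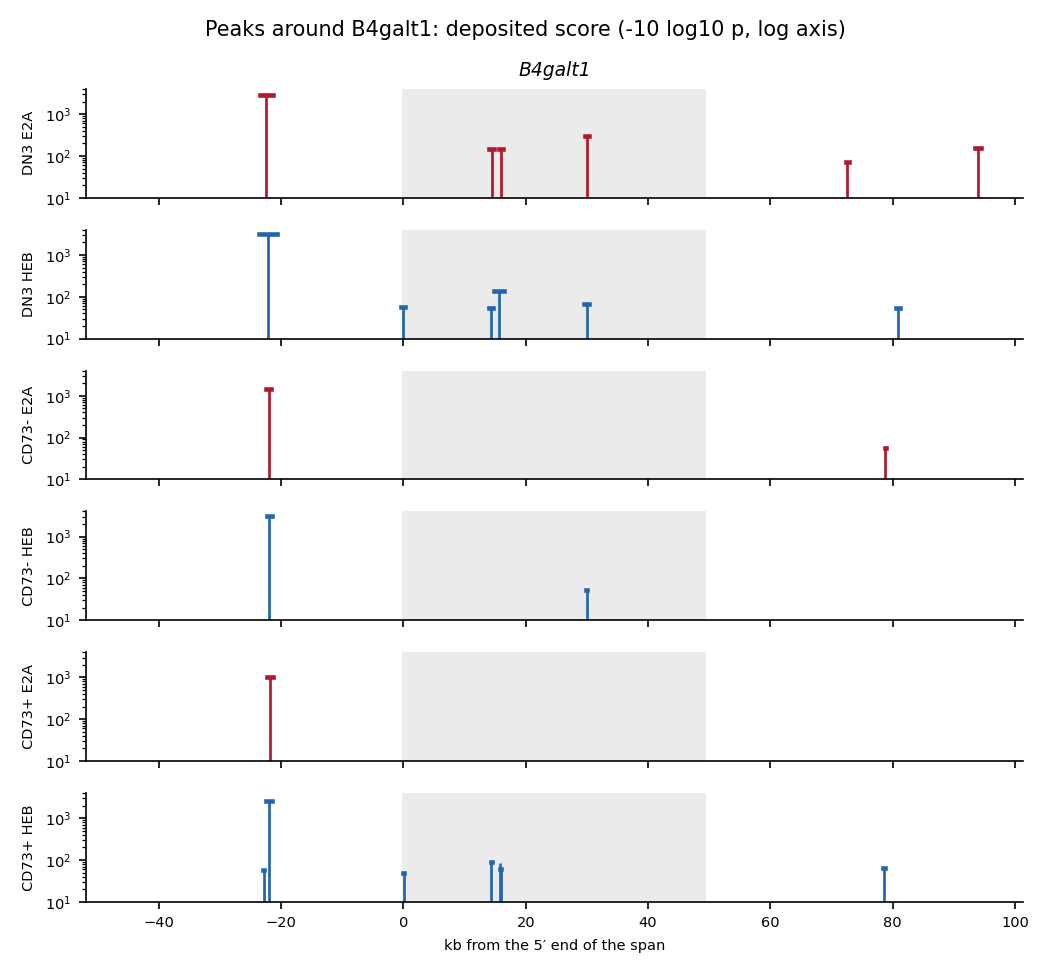
Peaks in each of the 6 lists from 50 kb upstream to 50 kb downstream of B4galt1; the x axis is the distance in kb from the 5′ end of the span (grey), the y axis the deposited score on a log scale, and each line ends at its peak's score with a cap as wide as the peak. A peak over 1000 stands 20633 bp or more upstream in all 6 lists, and the peaks inside the gene stay at 304 or below.

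Of the other 10 genes of the B4galt and B3gnt families, 4 had a strong peak in at least 1 list, close to the 38.1% of all genes, and in no list did one reach the score of B4galt1. B3gnt7, a glucosaminyltransferase of keratan sulfate chains, had a region 988 bp before its start site at chromosome 1, 86300880 to 86302233. It scored 625 for E2A and 440 for HEB in DN3 cells, 96.2 for E2A in CD73- cells and 148 for HEB in CD73+ cells. B4galt5, which makes lactosylceramide, had a region inside the gene at chromosome 2, 167316755 to 167317617, with 510 for E2A and 203 for HEB in DN3 cells. There the HEB score was 69.96 in CD73- and 68.2 in CD73+ cells, with no E2A peak in either. B4galt5 also had a DN3 HEB peak of 153 over its promoter, and its highest CD73+ HEB peak, 136, lay 18434 bp upstream. B3gnt2, the main enzyme of poly-N-acetyllactosamine chains, had 230 for E2A and 128 for HEB in DN3 cells at a region 18225 bp downstream, where the CD73+ HEB score was 99.6. The highest region of B3gnt8 (257 and 163 in DN3 cells) lay in the gene Bckdha, as did its CD73+ E2A peak of 147. The other 6 stayed below a score of 100, with peaks in 5 lists at B4galt4 (56.4 to 97.2), which has its highest 8208 bp upstream, and in 3 at B3gnt5 (58.3 to 60.1).

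Of the 6 N-glycan branching genes, 5 had a strong peak in at least 1 list, where 38.1% of all genes did, and Mgat4b had none. Mgat4a adds a branch on the alpha-3 arm of the glycan core. Its region at chromosome 1, 37546141 to 37548057, began 5125 bp before the start site and scored 2104 for E2A and 994 for HEB in DN3 cells, 613 and 437 in CD73- cells, and 83.5 and 426 in CD73+ cells. It came next after the B4galt1 region among these genes in both DN3 lists and for E2A in CD73- cells. Its rank was 77 of 12357 peaks in the DN3 E2A list and 2904 of 23205 in the CD73+ E2A list. A second Mgat4a region, inside the gene, scored 366 for E2A and 125 for HEB in DN3 cells and 52.6 for HEB in CD73+ cells. Mgat3, which adds the bisecting residue that blocks further branching, had a region in its span at chromosome 15, 80191356 to 80193569. It scored 1151 for E2A and 878 for HEB in DN3 cells, 187 and 189 in CD73- cells, and 57.2 and 773 in CD73+ cells. In CD73+ cells this was rank 153 of 10194 for HEB and 16778 of 23205 for E2A.

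Mgat1, the enzyme that opens the way to complex N-glycans, had a region over the last of its 3 start sites in the reference, at chromosome 11, 49249342 to 49250713. It scored 459 for E2A and 326 for HEB in DN3 cells, 145 for HEB in CD73- cells, and 71.9 and 398 for E2A and HEB in CD73+ cells. This was the one start site of the family touched by a strong peak in 3 lists within the 300-base promoter, which holds neither E-box. Mgat5 makes the branch that galectins bind most readily and is known to restrain T cell receptor clustering. It had 7 E2A peaks and 1 HEB peak in DN3 cells, the highest region at chromosome 1, 127442572 to 127444278, with 406 and 246. No peak of the other 4 lists touched a region inside Mgat5, and the CD73- HEB peak of 55.7 in its window lay in Tmem163.

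At Mgat2 the strong region did not lie at the gene. It stood 24511 bp upstream at chromosome 12, 69159109 to 69159647, over Rps29, a ribosomal protein gene, and Rn7s1, a 7S RNA gene. It scored 345 for HEB in DN3 cells, 258 for E2A and 501 for HEB in CD73- cells, and 112 for E2A in CD73+ cells, with no DN3 E2A peak. Counting peaks for their nearest protein-coding gene alone left Mgat2 with no peak. Mgat4b had 1 peak, 62.65 for E2A in CD73- cells, nearest to Maml1.

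Among the 11 sialyltransferase genes, DN3 peaks were called at 10 for E2A and 9 for HEB, against 49.6% and 48.1% of all genes. A strong DN3 peak lay at 5 of the 11 for each factor, against 27.5% and 22.2%. All 11 are long genes, in span deciles 8 to 10, and long genes meet more peaks. Their counts were not set against genes of like span. St8sia1 had the highest score of the 11 in every list but DN3 HEB, where St3gal1 did. Its region lay inside the gene at chromosome 6, 142916306 to 142918358. It scored 955 for E2A and 606 for HEB in DN3 cells, 298 and 420 in CD73- cells, and 237 and 1561 in CD73+ cells. In CD73+ cells its rank was 45 of 10194 for HEB and 225 of 23205 for E2A. St8sia1 also had 8 CD73+ E2A peaks, a number met by 6.396% of genes in its span decile, and all but the one at this region scored below 100. A second region, 142838091 to 142838812, scored 293 for E2A and 68.5 for HEB in DN3 cells and 68.9 and 90.8 in CD73+ cells.

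St3gal1, which caps core 1 O-glycans and so changes lectin binding of thymocytes, had a region just inside one end of its span, at chromosome 15, 67103173 to 67104918. It scored 892 for E2A and 736 for HEB in DN3 cells, 240 and 305 in CD73- cells, and 489 for HEB in CD73+ cells, with no CD73+ E2A peak there. The CD73+ E2A peaks of St3gal1 lay elsewhere and scored 74.8 or below. St6gal1, the alpha-2,6 sialyltransferase of N-glycans, had 3 strong regions within 10 kb of each other inside the gene. The highest, at chromosome 16, 23279626 to 23280529, scored 249 for E2A and 279 for HEB in DN3 cells, 87.0 for HEB in CD73- cells and 143 for HEB in CD73+ cells. A second, at 23286369 to 23287363, scored 188 and 231 in DN3 cells, 51.9 for HEB in CD73- cells, and 83.1 and 252 in CD73+ cells. None of the 3 had a CD73- E2A peak.

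The remaining sialyltransferases had lower and fewer peaks. The highest score was 130 at St3gal5, the GM3 synthase gene, for E2A in DN3 cells, 128 at St8sia4, a polysialyltransferase gene, for E2A in DN3 cells, and 128 at St3gal4, which helps make selectin ligands, for HEB in DN3 cells. St3gal2 had 129 for E2A in CD73+ cells, St3gal6 had 140 for HEB in CD73- cells and St8sia6 had 104 for E2A in CD73+ cells. St3gal3 and St6gal2 had no strong peak in any list.

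The 5 fucosyltransferase and O-glycan and I-antigen branching genes of the list carried weak peaks, with a strong one at Gcnt1 alone. E2A peaks stood at 3 of these 5 genes at the DN3 stage, against 49.6% of all genes. The E2A count was 4 for CD73- cells (41.3% of all genes) and also 4 for the CD73+ group (53.1%). For HEB the counts were 3 at the DN3 stage (48.1%), 1 for CD73- cells (37.9%) and 2 for the CD73+ group (41.8%). Fut7, the enzyme of the sialyl Lewis x selectin ligand, had weak peaks in all 6 lists, 69.3 for E2A and 55.8 for HEB in DN3 cells, 60.9 and 81.3 in CD73- cells, and 69.6 and 55.7 in CD73+ cells. The first 4 fell on 1 region, at chromosome 2, 25421863 to 25422673, 569 bp from a start site, whereas the CD73+ peaks lay in Ptgds and Abca2. Fut4 had highest scores of 64.3 to 89.25 in 4 lists, with the DN3 HEB peak of 75.2 over the promoter E-box printed above. Fut8, the core fucosyltransferase gene, had highest scores of 51.3 to 67.2 in 4 lists. Gcnt1, which makes the core 2 branch, had its highest peak, 146 for E2A in CD73+ cells, in the neighbouring gene Rfk, and Gcnt2 had a single peak, 55.6 for HEB in CD73+ cells.

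Of the 7 genes that start O-glycans or make core 1, Galnt7 had the highest score in every list but DN3 HEB, where Galnt1 did. Galnt7, which acts on sites already primed by other family members, had a region in its span at chromosome 8, 57579315 to 57580575. It scored 1050 for E2A and 303 for HEB in DN3 cells, 254 and 380 in CD73- cells, and 106 and 783 in CD73+ cells. Galnt2 had the most peaks of the 40 genes in DN3 cells, 12 for E2A and 11 for HEB, numbers met or passed by 0.594% and 0.411% of genes in its span decile. In the sorted groups it had 2 peaks for each factor in CD73- cells, and none for E2A and 4 for HEB in CD73+ cells. Its highest region, at chromosome 8, 124272983 to 124274129, scored 517 for E2A and 265 for HEB in DN3 cells and 87.0 and 78.7 in CD73- cells, with no CD73+ peak. Galnt1 had 159 for E2A and 371 for HEB in DN3 cells and 145 for HEB in CD73+ cells at a region 25956 bp outside the gene.

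C1galt1, which makes the core 1 disaccharide on which most T cell O-glycans are built, had 3 regions at its 5′ end. The highest, 1284 bp inside the gene, scored 126 for E2A and 76.2 for HEB in DN3 cells and 91.4 for HEB in CD73+ cells. A DN3 E2A peak of 123 began within the promoter and covered 1 CAGCTG and 1 CAGGTG just after the start site. It did not cover the E-box in the stretch printed above. Galnt12 had 122 for E2A in DN3 cells at a region in Anks6, and Galnt10 and Galnt3 had no strong peak.

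**Figure D4:**
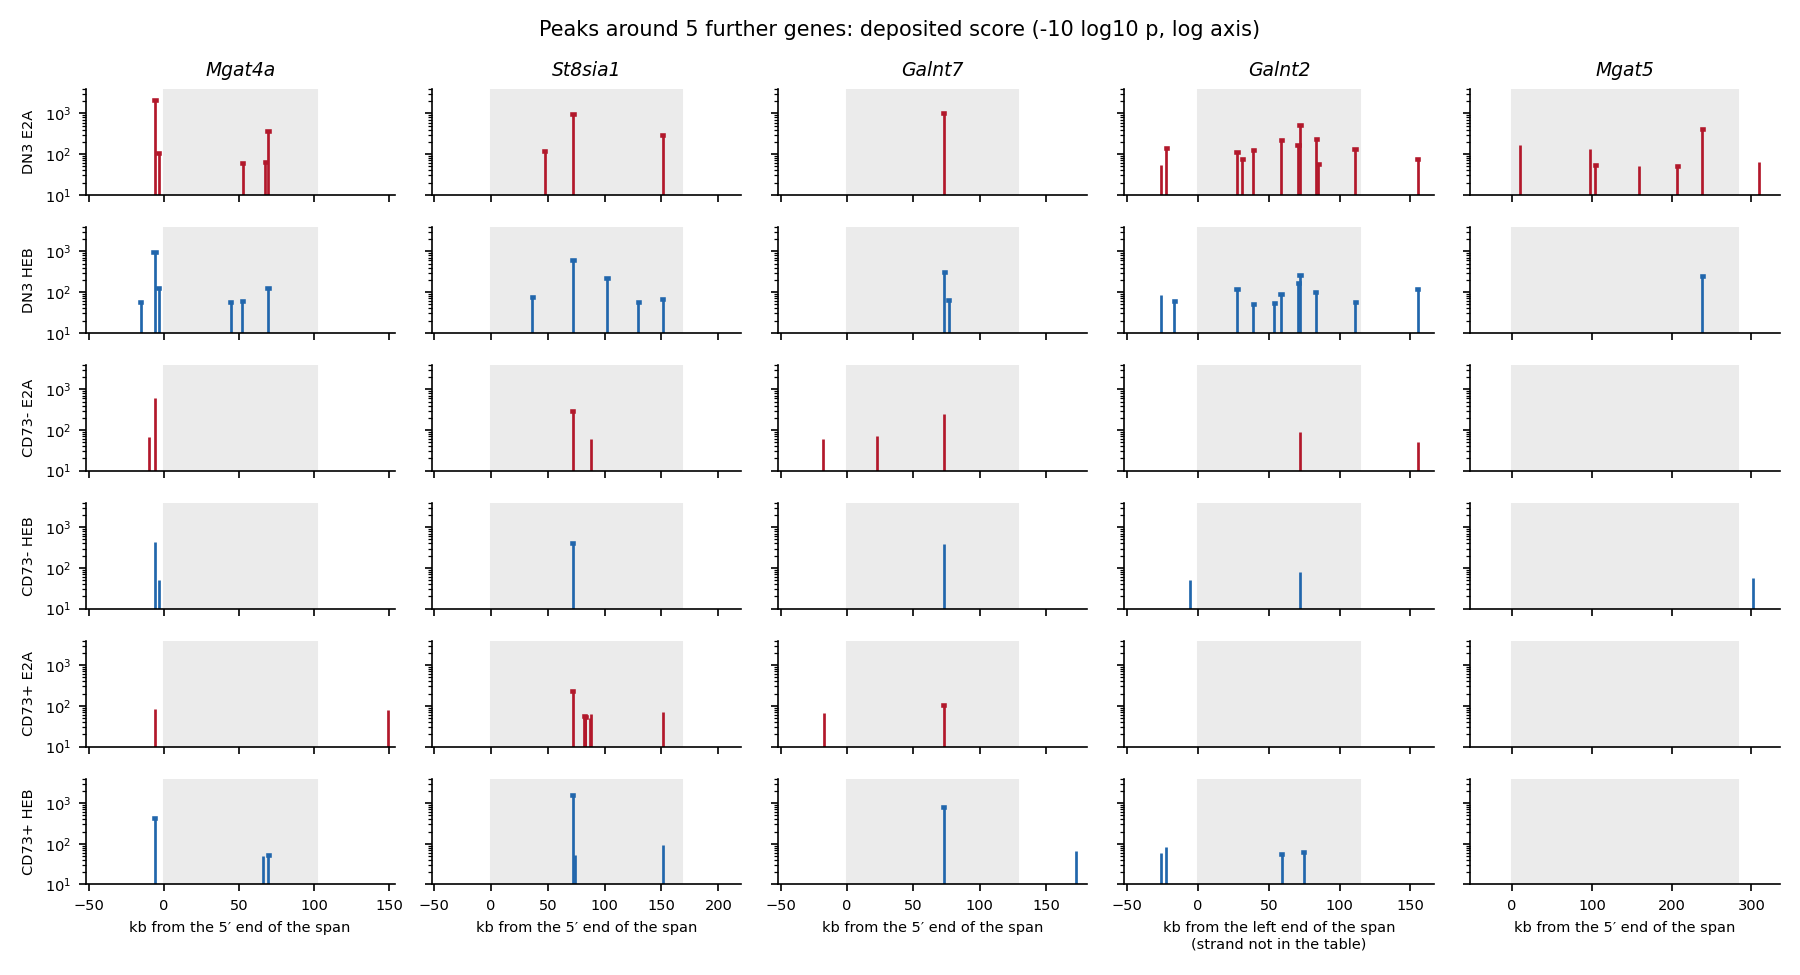
Peaks in each of the 6 lists around Mgat4a, St8sia1, Galnt7, Galnt2 and Mgat5, from 50 kb before to 50 kb after each span (grey); x axes give kb from the 5′ end (left end for Galnt2), y axes the deposited score on a log scale. One position carries a peak in all 6 lists at Mgat4a, St8sia1 and Galnt7, whereas Galnt2 has 12 and 11 DN3 peaks and Mgat5 has none inside the gene outside DN3 cells.

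The stages with a peak were counted for each factor. E2A peaks stood at all 3 stages at 13 of the 40 genes, against 16.8% of all genes, led by B4galt1, Mgat4a and Mgat3. HEB peaks did so at 13 genes too, against 18.7%, led by B4galt1, St8sia1 and Mgat4a. At the shares of genes of like span, 8.51 and 9.04 genes would have done so. With the CD73+ lists exchanged the counts were 14 for E2A (35%, against 17.7% of all genes) and 13 for HEB (32.5%, against 17.4%). Strong peaks stood at all 3 stages at 3 genes for E2A and 8 for HEB. The matching share over all genes was not computed, so these counts cannot be set against a background. A gene can count here through different peaks at different stages, as Fut7 did.

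E2A peaks in DN3 cells alone were found at 4 genes (10%, against 14.7% of all genes), Mgat5, St3gal5, St3gal3 and Galnt3, and HEB peaks in DN3 cells alone at 5 (12.5%, against 12.5%), led by St3gal4, Fut4 and St8sia4. DN3 and CD73+ peaks without a CD73- peak were found at 9 genes (22.5%, against 10.7% of all genes) for E2A, led by B4galt5, Mgat1 and B3gnt8, and at 7 (17.5%, against 10.4%) for HEB, led by B3gnt7, Galnt1 and B3gnt8. DN3 and CD73- peaks without a CD73+ peak were found at 4 genes (10%, against 7.35%) for E2A, led by B3gnt7, Galnt2 and B3gnt2, and at 3 (7.5%, against 6.43%) for HEB, Mgat2, Mgat5 and St3gal3. Other genes had peaks in the sorted groups without a DN3 peak. For E2A, Mgat2, Gcnt1 and B3gnt5 (7.5%, against 11.3% of all genes) had them in both sorted populations, Mgat4b (2.5%, against 5.82%) in CD73- and St6gal2 (2.5%, against 14.2%) in CD73+ cells alone. For HEB, St8sia6 (2.5%, against 4.59%) had them in both, St3gal6 and B3gnt5 (5%, against 8.22%) in CD73- cells, and Galnt12, Gcnt2 and B4galt6 (7.5%, against 8.12%) in CD73+ cells. All but those of Mgat2, Gcnt1 and St3gal6 scored 97.8 or below. Neither factor had a called peak at B4galt2 and B4galt3, E2A alone had none at B4galt6, B4galt7 and Gcnt2, and HEB alone at Galnt10, Galnt3, Gcnt1 and Mgat4b. Genes without an E2A peak at any stage thus numbered 5 (12.5%, against 19.1% of all genes and 15.2% at like span). Those without a HEB peak numbered 6 (15%, against 31.0% and 25.7%). With the CD73+ lists exchanged, the DN3 and CD73+ pattern held 7 genes for E2A (17.5%, against 12.3% of all genes), 6 of them as before, and 7 for HEB (17.5%, against 10.8%), 4 of them as before. The DN3-only pattern then held 6 genes for E2A (15%, against 13.2% of all genes), 3 of them as before. For HEB it held 5 (12.5%, against 12.1%), 2 of them as before.

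**Figure D5:**
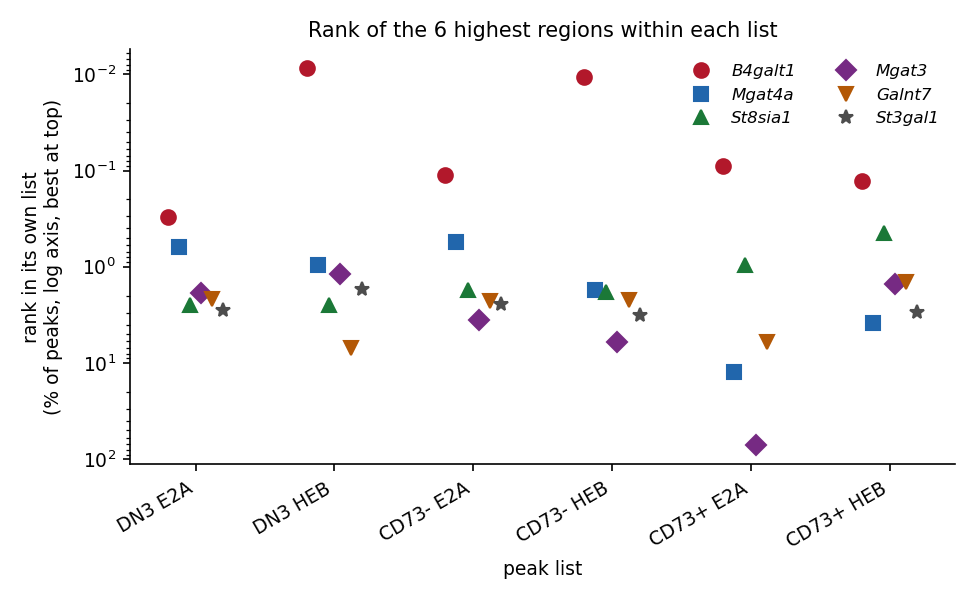
Rank of the highest peak of each of the 6 highest regions within its own list, as a percent of that list's peaks on a reversed log axis; a missing point is a list without a peak there. The B4galt1 region stays within the highest 0.308% in all 6 lists, and the Mgat3 region lies at 72.3% in the CD73+ E2A list, where the St3gal1 region has no peak.

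At the level of sites, 40 of the regions had peaks of both factors in DN3 cells. Of these, 10 (25%) had a CD73- E2A peak and 16 (40%) a CD73- HEB peak. A CD73+ E2A peak was found at 8 (20%) and a CD73+ HEB peak at 21 (52.5%), and 14 (35%) had none in these 4 lists. Over the genome, the 5292 such regions had these in 24.0%, 32.0%, 16.0% and 49.9% of cases, and none of the 4 in 42.6%. The family's joint sites thus lay within 10 percentage points of all joint sites by each of these shares. Of 77 DN3 HEB peaks at these genes 41 overlapped an E2A peak, 53.2% (95% Wilson interval 42.2% to 64.0%, counting error only), against 46.0% of the whole list. In CD73- cells 10 of 30 did (33.3%, interval 19.2% to 51.2%), against 22.2%, and in CD73+ cells 8 of 53 (15.1%, interval 7.85% to 27.1%), against 14.8%. The whole-list share lay inside the interval at each stage, but the interval takes peaks as independent. Peaks cluster by gene, with 11 of the 77 DN3 HEB peaks at Galnt2, so the interval is too narrow and serves as no test. Each stage has 1 input library for both factors.

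Peaks within 1 kb of a start site were counted at the 32 genes with one in the reference. The counts were small, but their share stood above that of all 17491 genes with a start site in every list. In DN3 cells 5 genes had an E2A peak (15.6%, against 4.32%) and 8 a HEB peak (25%, against 4.35%). In CD73- cells there were 2 (6.25%, against 1.05%) and 3 (9.38%, against 1.62%). In CD73+ cells there were 3 (9.38%, against 1.15%) and 4 (12.5%, against 3.63%). Mgat1 was the one gene with such a peak in 5 lists. Peaks touched 8 of the 46 promoters, and 4 of these 8 held an E-box. Among all 46, CAGCTG was found in 13.04% and CAGGTG in 17.4%, against 16.3% and 20.2% of 32851 promoters of the same length. Over the genome, 57.8% of promoters touched by a DN3 E2A peak held either E-box, against 32.4% of those not touched. Sequence under the distal regions, B4galt1 included, was not analysed here.

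Other genes of the glycan pathways were counted from lists chosen by function. The shares over all protein-coding genes are 49.6% for a DN3 E2A peak and 48.1% for a DN3 HEB peak. Of 6 Notch fringe and O-fucose genes, 5 (83.3%) had an E2A peak and 4 (66.7%) a HEB peak in DN3 cells, led by Lfng (1606 and 486) and Mfng (604 and 179), which elongate O-fucose on Notch. Of 18 further O-glycan genes, 11 (61.1%) had a DN3 peak for each factor, led by Galnt4 (3100 and 1053), St6galnac5 (702 and 277) and Gcnt3 (274 and 178). Of 23 N-glycan precursor and trimming genes 15 (65.2%) had one for each factor, led by Man1a (921 and 276), Stt3b (462 and 596) and Alg2 (364 and 379). Among 14 genes of nucleotide sugar supply, 6 (42.9%) had a DN3 E2A and 8 (57.1%) a HEB peak, led by Gfpt1 (669 and 689), Gne (292 and 195) and Gmds (206 and 115). Of 16 glycan carriers and readers, 14 (87.5%) had a DN3 peak for each factor, led by Selplg, the selectin ligand that Fut7 and Gcnt1 modify (2286.5 and 1577), Lgals3 (683 and 197) and Spn (533 and 228). Neighbouring genes such as Cd8a and Cd8b1 share their DN3 peaks, so these 16 are not independent. Of 15 sulfotransferase and sialidase genes 12 (80%) had a DN3 E2A and 9 (60%) a HEB peak, and Chst12 shares its top peaks with its neighbour Lfng. In CD73+ cells HEB peaks were called at 9 of the 16 carriers and readers (56.2%), 16 of the 23 N-glycan genes (69.6%) and 5 of the 14 sugar supply genes (35.7%), against 41.8% of all genes. They were also called at 2 of the 6 Notch genes (33.3%), 11 of the 18 O-glycan genes (61.1%) and 8 of the 15 sulfotransferase and sialidase genes (53.3%). Counts of these genes in the other lists of the sorted groups are not given here.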

How the data were processed

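Chromatin bound by E2A or HEB was sequenced in DN3, CD73- and CD73+ cells with 1 input per stage. The submitters' processing notes name Bowtie, HOMER and MACS 1.4.2 and build mm10. Duplicates were concatenated, per the labels' protocols. The deposited peak score is taken from its range as the p-value score that MACS writes. It served for description, ranking and filtering inside one list. The 6 lists were matched to groups by cell and antibody name, and 0 columns were left unmatched. No read depth is given in the sources used here.

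Peaks on 21 chromosomes were set against gene spans and start sites of RefSeq (GRCm38.p6, the same build). Positions are 1-based. The members and lists were chosen with earlier results of these data known, and no p-values were computed. Shares for genes of like span are means over all protein-coding genes in the same decile of span as each member, and do not account for neighbouring genes. Counts by enzyme group were set against all genes alone, without regard to span. Genes named in full are B4galt1, the 12 with the highest peak and any with peaks in all 6 lists. Of each stage pattern and pathway list up to 3 leading genes are named. Alternatives were windows of 10 kb, 0 kb and 100 kb, a minimum score of 100, lists of one length, no peaks over 3000 bp, the nearest gene alone, exchanged CD73+ lists and stricter overlap. Counting was tested on simulated data. The versions were matplotlib 3.10.9, scipy 1.17.1, pandas 2.3.3, numpy 2.4.6 and Python 3.11.15.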

Additional observations from a re-analysis of the deposited data

How the results depend on the processing

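Counts of genes with a peak are given in the order DN3 E2A, DN3 HEB, CD73- E2A, CD73- HEB, CD73+ E2A and CD73+ HEB, where they were 30, 28, 21, 19, 26 and 24. A score of at least 100 gave 19, 18, 7, 10, 8 and 11, and the 1000 highest peaks of each list, a version chosen after the data were seen, gave 10, 11, 7, 9, 5 and 8. Gene spans alone gave 10, 11 and 9 for CD73- E2A, CD73- HEB and CD73+ E2A. CD73+ E2A fell to 15 with a 10 kb window and to 17 with lists of 9407 peaks each. The 13 genes with an E2A peak at all 3 stages became 8 with a 10 kb window, 6 with spans alone, 21 with a 100 kb window, 3 with a score of at least 100 and 2 with the 1000 highest peaks. The 13 for HEB became 8 with a score of at least 100 and 7 with the 1000 highest peaks. Among these alternatives, only the counts per list by score and by the 1000 highest peaks have a share over all genes above. The others were not set against all genes, and a change of window moves the count of any gene set. The overlap of HEB with E2A peaks became 40.3% (DN3, midpoints within 200 bp), 74.2% (DN3, both scoring at least 100), 72.7% (CD73-, both scoring at least 100) and 7.55% (CD73+, 50% of both peaks). Leaving out peaks wider than 3000 bp and counting for the nearest gene alone kept the 6 counts per list and both counts over all 3 stages within 1.5 times. Exchanging the CD73+ lists was run for the patterns by stage, and gave 14 for E2A and 13 for HEB at all 3 stages. It was not run for the overlap of the factors. Of 72 highest scores of the 12 leading genes, 14 changed with a 10 kb window and 6 with the nearest gene alone. No paired analysis was possible because each group is 1 pooled list. Weak peaks near the minimum score make up most of the CD73+ E2A and CD73- E2A lists, where 7.02% and 8.79% of peaks reach a score of 100. Depth is unknown.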
